A study of Rattus norvegicus with 18 samples.

Results

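The genes described here are 8 members of the CC chemokine system, the ligands Ccl2, Ccl3, Ccl4, Ccl5, Ccl7 and Ccl20 and the receptors Ccr1 and Ccr2. They were found on the array by gene name or by an accession that maps to the gene. This gave 9 probes out of 41012, because Ccl7 has 2 probes and each other member has 1. All 8 members passed the filter on dim probes, which kept 27199 of 35279 genes, although Ccl20 passed it only through time-points at which it was bright.

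CC chemokines are small secreted proteins that guide leukocytes along gradients by binding G protein-coupled receptors on the cell surface. Ccl2 and Ccl7 are ligands of Ccr2, the receptor that marks inflammatory monocytes. Ccl3 and Ccl5 bind Ccr1, and Ccl20 binds Ccr6 on lymphocytes and dendritic cells. In a cut peripheral nerve this system is best known for bringing in the monocytes that become macrophages and clear myelin debris.

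RNA came from the proximal stump of the cut left sciatic nerve. The rats were adult Sprague-Dawley males, and a piece of the nerve had been removed 0 h, 0.5 h or 1 h before sampling in the early groups and 3 h, 6 h or 9 h before it in the late ones. Each of these 6 groups has 3 arrays, 18 in all. Anaesthesia and resection were the same for every animal, 0 h included, and no group was sham-operated. The labels do not say whether an array held 1 rat or a pool, so the P-values measure the spread between arrays, which may be partly technical. The scanner read the 0 h and 0.5 h groups on 1 day, the 1 h, 3 h and 6 h groups with 2 of the 9 h arrays on another, and the last 9 h array on a day of its own. Each of the 9 slides held a single time-point, and the arrays of 0 h, of 1 h and of 6 h each shared 1 slide, so that slide and time cannot be told apart in a comparison with any of these groups.

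A level is given as the log2 signal of a probe minus the 75th percentile of its array, so that a level of 0 equals that percentile. Arrays of 1 time-point correlated between 0.976 and 0.992, and 65.9% to 93.5% of the spots of an array were well above background. The Schwann cell gene Pmp22, which encodes a protein of peripheral myelin, stood at 8.50 ± 0.10 (SD, n = 3) at 0 h. Genes of skeletal muscle were also present. The mean level of 8 muscle markers ranged from 3.25 to 7.49 across the 0 h arrays. It ranged from -1.81 to 3.20 at 1 h, below every 0 h array, and from -2.60 to 5.52 at 6 h. The median log2 change of this list at 1 h was -4.61. No muscle marker passed the test against 0 h at any time, though the spread between arrays reached an SD of 7.48, for Myh4 at 9 h. The part of muscle in the results below was not tested.

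The middle 30 bases of the probes are shown, because each value below is the brightness of 1 such sequence. For Ccl7 the 29 bases that its 2 probes share are shown in their place.

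Ccl2: atcctggttcaacactttcaatgtatgaga
Ccl7: ttagacatgaaaacttcaactccaaagcc
Ccl20: aaaaggttcaatattatgtttaaggcagta
Ccl3: tattctaggtagacgtgatgacaaagtcat
Ccl4: aagattcatcggaactttgtgatggattac
Ccl5: cagtcgtctttgtcactcgaaggaaccgcc
Ccr1: tgataatttgctacgcagggatcatcagaa
Ccr2: cagttttctatagggagacagcagaccgag

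Apart from the Ccl7 pair, the longest run of bases that any 2 of these probes shared was 8, between Ccl3 and Ccr1 on the same strand and between Ccl3 and Ccl5 on opposite strands. The files place 5 of the 6 ligands on chromosome 10 of rn4. The Ccl2 probe lies at chr10:70257919-70257978 on the plus strand, and the Ccl7 probes at chr10:70268643-70268702 and chr10:70268674-70268733, 10.7 kb away on the same strand. The Ccl3 probe, at chr10:71744611-71744670 on the minus strand, lies 15.6 kb from the Ccl4 probe at chr10:71760267-71760326 on the plus strand. The Ccl5 probe is mapped to chr10:71606089-71609018 on the minus strand, an interval of 2930 bases for a probe of 60. Ccl20 lies apart at chr9:82443347-82443406. The receptor probes lie 199 kb from each other on chromosome 8, Ccr1 at chr8:128694469-128694528 on the minus strand and Ccr2 at chr8:128893805-128893864 on the plus strand.

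Over the 6 time-points, 7 of the 8 members changed, all but Ccl5, by the F-test of 1 limma model, against 36.3% of all tested genes. A gene was called when its unadjusted P-value was under 0.01 and its Benjamini-Hochberg adjusted P-value over all probes was under 0.05. The members fell into 3 kinds of course. Ccl2, Ccl7, Ccl20 and Ccl3 were already higher at 0.5 h and stayed higher to 9 h. Ccl4, Ccr1 and Ccr2 were called higher only at 6 h and 9 h, and Ccl5 was called at no time.

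**Figure D1:**
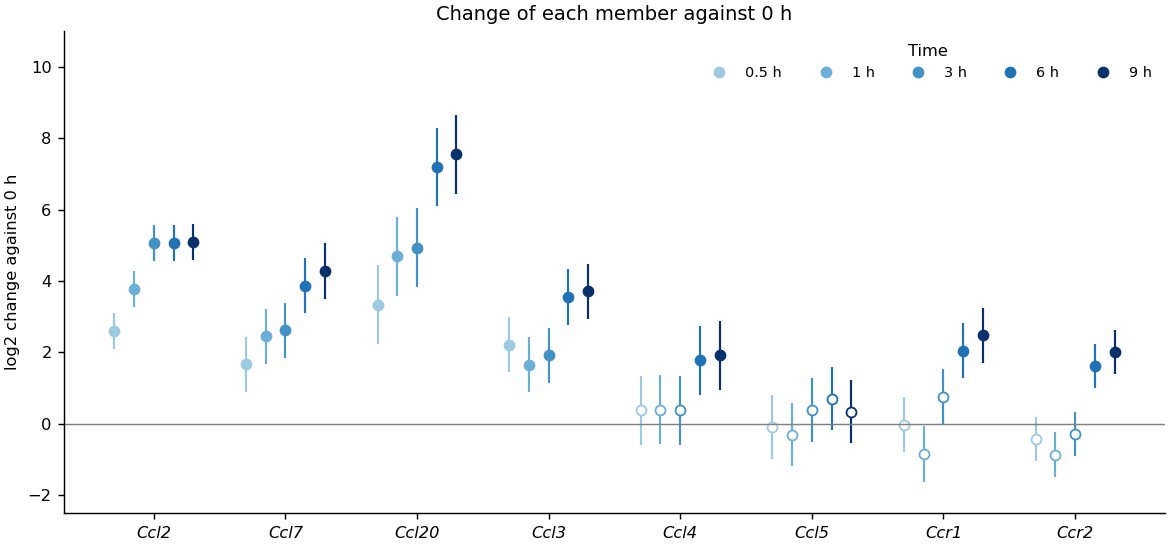
Log2 change of each member against 0 h with its 95% confidence interval, in 5 shades for 0.5 h to 9 h; filled points passed the test and open points did not. Ccl2 lay at 2.61 at 0.5 h and near 5.1 from 3 h on, while Ccr1 and Ccr2 passed only at 6 h and 9 h, and the Ccl20 values start from a 0 h signal that was not well above background.

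In numbers, 4 members were higher than 0 h at 0.5 h, where 4.70% of all tested genes were. The count was 4 at 1 h (3.89% of all genes) and 4 at 3 h (7.70%), each time Ccl2, Ccl3, Ccl7 and Ccl20. It was 7 at 6 h (13.1%) and 7 at 9 h (17.0%), all but Ccl5. With normexp background correction 5 members were called at 6 h, at 9 h and by the F-test, since Ccl4 and Ccr2 were lost. No member was called lower at any time. Of all tested genes, 1.92% were lower at 0.5 h and 2.21% at 1 h. The share was 7.07% for 3 h, 13.5% for 6 h and 15.9% for 9 h. The 5 comparisons share the 0 h arrays, and for all but 0.5 h the scan day differed together with the time, so that for these the day and the injury cannot be told apart.

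Ccl2, also known as MCP-1, is the main ligand of Ccr2. Its level at 0 h was 1.17, 1.23 and 1.55 on the 3 arrays. At 0.5 h it was 3.75, 3.93 and 4.09, and at 1 h 4.64, 5.37 and 5.22. The groups did not overlap, and every 0.5 h array stood above every 0 h array.

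From 3 h on the level of Ccl2 stayed where it was. The 3 h arrays gave 5.78, 6.72 and 6.67, the 6 h arrays 6.35, 6.37 and 6.42, and the 9 h arrays 6.41, 6.21 and 6.60. These 9 values overlap, and the means of 3 h, 6 h and 9 h lay within 0.026 of each other on the log2 scale. Against 0 h the log2 change was 2.61 ± 0.23 (SE) at 0.5 h (6.10-fold, adjusted P = 4.26e-05), 3.76 ± 0.23 at 1 h (13.6-fold, adjusted P = 9.93e-07) and 5.08 ± 0.23 at 3 h (33.7-fold, adjusted P = 1.57e-08). It was 33.5-fold at 6 h and 34.1-fold at 9 h. The step of 1.31 ± 0.23 from 1 h to 3 h passed the test (adjusted P = 0.00318), though not in a fit of its 6 arrays alone, while that of 1.15 ± 0.23 from 0.5 h to 1 h did not (adjusted P = 0.114). An array has 10 spots of the Ccl2 probe, which were averaged except for 1 outlier spot on 0 h replicate 2. No spot was saturated, and Ccl2 was called against 0 h at every time under every alternative setting run.

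Ccl7, or MCP-3, is a second ligand of Ccr2. On its brighter probe the level was 0.027, 0.45 and 0.37 at 0 h, and 1.48, 1.96 and 2.42 at 0.5 h. It was 2.30, 2.81 and 3.09 at 1 h and 2.03, 3.03 and 3.65 at 3 h. The later values went up further, to 3.94, 4.03 and 4.48 at 6 h and 4.65, 4.14 and 4.89 at 9 h. Every array after injury was above every 0 h array, and the 1 h and 3 h arrays overlapped.

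Ccl7 was 3.18-fold higher than 0 h at 0.5 h (log2 change 1.67 ± 0.36, adjusted P = 0.0178), 6.15-fold at 3 h and 19.5-fold at 9 h (4.28 ± 0.36, adjusted P = 2.52e-06). Its second probe, which overlaps the first by 29 bases and is no independent measure, gave 3.01-fold at 0.5 h and 18.2-fold at 9 h. No step between neighbouring times passed the test for Ccl7, the step nearest to it being 1.25 ± 0.36 from 3 h to 6 h (adjusted P = 0.0615). That step was called with slide as a random effect, with array weights, with a robust trended prior, after the strictest filter on dim probes, and without 1 h replicate 3 or 3 h replicate 3. The call at 0.5 h did not hold without 0 h replicate 1 (adjusted P = 0.0566) or 0.5 h replicate 3 (adjusted P = 0.0836), nor with normexp background correction (adjusted P = 0.0815). Without 0.5 h replicate 2 the brighter probe alone missed it (adjusted P = 0.0516).

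Ccl20, a ligand made by epithelial and myeloid cells in inflammation, was the only member that was not well above background on any 0 h array. There it measured -8.47, -7.28 and -8.66. At 0.5 h it measured -4.27, -5.41 and -4.72, and was well above background on 2 of the 3 arrays. From 1 h on all arrays were above background.

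The level of Ccl20 was -4.03, -3.05 and -3.25 at 1 h and -3.85, -2.77 and -3.00 at 3 h. It then reached -1.90, -1.17 and 0.24 at 6 h and -0.81, -0.70 and -0.25 at 9 h. No array of 6 h or 9 h overlapped with those of 3 h or earlier. Since 0 h gives only an upper bound, the fold changes are lower bounds, taken against the higher of the dim signal and the faintest signal of that array that was well above background. At 0.5 h, where an array was dim, the same measure gave 3.26-fold (adjusted P = 0.00283), which is no strict lower bound. Ccl20 was at least 8.36-fold higher at 1 h, 9.85-fold at 3 h, 47.35-fold at 6 h and 60.6-fold at 9 h (adjusted P = 5.71e-07). These P-values come from the fit of the measured signals, dim ones included, and not from the bounds, and the value at 0.5 h includes the dim array of that group. The probe passed the filter only through the times at which it was bright. The step of 2.26 ± 0.52 from 3 h to 6 h passed the test (adjusted P = 0.0238), but not without 3 h replicate 1, 6 h replicate 2 or 6 h replicate 3, with normexp, or in a fit of its 6 arrays alone. With normexp the log2 change was smaller than these bounds, at 0.73 for 0.5 h (adjusted P = 0.9999), 1.92 for 1 h (adjusted P = 0.205) and 2.22 for 3 h (adjusted P = 0.0502), none of them called. It was 3.45 for 6 h and 3.74 for 9 h, both called, so that the bounds hold for the main background correction only.

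**Figure D2:**
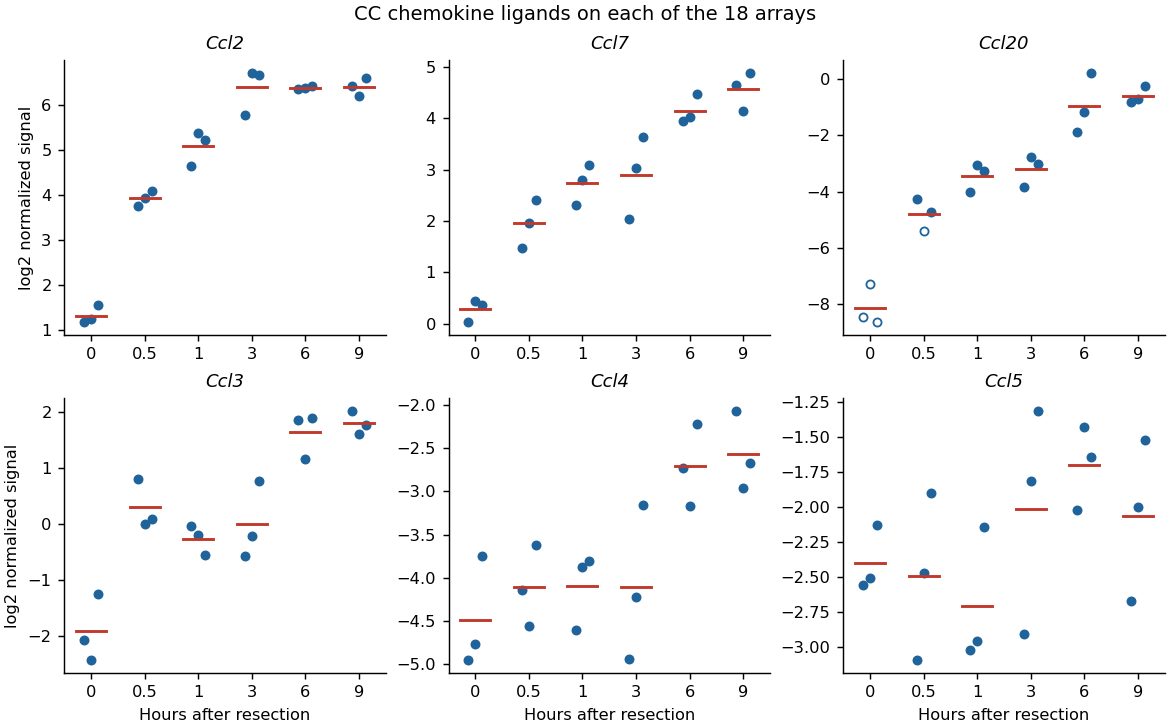
Level of the 6 CC ligands on each of the 18 arrays, as log2 signal relative to the 75th percentile of the array, by hours after resection; points are arrays, red bars are means of 3, open points were not well above background, and each panel has its own axis. Ccl2 levels off from 3 h, Ccl3 and Ccl20 stand higher at 6 h than at 3 h, and the Ccl5 arrays overlap across most times.

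Ccl3, or MIP-1α, attracts monocytes and neutrophils through Ccr1. At 0 h it measured -2.06, -2.43 and -1.25. It measured 0.80, 0.0037 and 0.10 at 0.5 h, then -0.031, -0.19 and -0.55 at 1 h and -0.56, -0.21 and 0.78 at 3 h. At 6 h it measured 1.87, 1.16 and 1.90, and at 9 h 2.03, 1.61 and 1.77.

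Every 1 h array of Ccl3 lay below every 0.5 h array, by 0.56 ± 0.36 in the mean, and this did not pass the test (adjusted P = 0.535). The 3 h arrays overlapped both groups (adjusted P = 0.706 and 0.730). The level at 6 h was above that at 3 h by 1.64 ± 0.36 (adjusted P = 0.0211). Against 0 h it was 4.64-fold higher at 0.5 h (adjusted P = 0.00391), 3.15-fold at 1 h (adjusted P = 0.0183) and 3.77-fold at 3 h (adjusted P = 0.00340). It reached 11.8-fold at 6 h and 13.1-fold at 9 h (log2 change 3.71 ± 0.36, adjusted P = 8.48e-06). The call at 1 h was lost without 0 h replicate 1 (adjusted P = 0.0616), without 0 h replicate 2 (adjusted P = 0.0806), without 1 h replicate 1 (adjusted P = 0.0682) and with normexp (adjusted P = 0.0605), and that at 3 h in a fit of its 6 arrays alone (adjusted P = 0.0513). The step from 3 h to 6 h was lost for Ccl3 without any 1 of 4 of the 6 arrays involved, those being 3 h replicates 1 and 2 and 6 h replicates 1 and 3, and also with normexp and in a fit of these 6 arrays alone.

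Ccl4, or MIP-1β, is coded next to Ccl3 and attracts monocytes and lymphocytes. Its level was -4.95, -4.77 and -3.74 on the 0 h arrays and -4.14, -4.56 and -3.62 on those of 0.5 h. The 1 h arrays gave -4.60, -3.88 and -3.80 and the 3 h arrays -4.94, -4.22 and -3.15. These 4 groups overlapped throughout. At 6 h it was -2.73, -3.17 and -2.22, and at 9 h -2.06, -2.96 and -2.67, with no overlap with 0 h.

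Ccl4 was 3.44-fold higher than 0 h at 6 h (log2 change 1.78 ± 0.45, adjusted P = 0.01002) and 3.80-fold at 9 h (1.92 ± 0.45, adjusted P = 0.00520). At 0.5 h, when Ccl3 had risen by 2.21, the change of Ccl4 was 0.38, with a 95% confidence interval of -0.58 to 1.35. The interval of Ccl4 does not reach the estimate of Ccl3, but the difference between the genes was not tested. With normexp the change of Ccl4 was not called at 6 h (adjusted P = 0.361) or 9 h (adjusted P = 0.251).

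Ccl5, or RANTES, is known as a product of T and NK cells. It measured -2.56, -2.51 and -2.13 on the 0 h arrays, which the next 3 groups overlapped. Those of 0.5 h gave -3.10, -2.48 and -1.90, those of 1 h -3.03, -2.96 and -2.14, and those of 3 h -2.91, -1.82 and -1.31. The 6 h arrays, with the highest mean, measured -2.02, -1.42 and -1.65, all above those of 0 h. At 9 h the values of -2.68, -1.999 and -1.52 lay on both sides of the 0 h arrays. The largest change, 0.70 ± 0.41 at 6 h, was not called (adjusted P = 0.227, 95% confidence interval -0.18 to 1.59), and neither was the F-test (adjusted P = 0.297). Of the 8 T and NK cell markers that were tested, 2 were called higher at 6 h and 3 at 9 h, where 13.1% and 17.0% of all tested genes were. Cd3d and Cd8a were called at both times. Gzmb was called at 9 h through another of its probes, while its reported probe changed by 0.31. Cd3g (-0.25), Cd4 (-0.53), Gzma (-0.25), Nkg7 (0.093) and Prf1 (0.0038) were not called at 9 h. The list had a median log2 change of 0.28 at 6 h and 0.048 at 9 h.

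Ccr1 is a receptor of Ccl3, Ccl5 and Ccl7 on monocytes and neutrophils. It measured -1.05, -0.81 and -0.98 on the 0 h arrays, -0.91, -1.63 and -0.38 on those of 0.5 h, and -1.95, -1.89 and -1.55 on those of 1 h. The 1 h arrays were all below the 0 h arrays, by 0.85 on the log2 scale, and this difference did not pass the test (adjusted P = 0.177), although it did in a fit of those 6 arrays alone (adjusted P = 0.0193). The 3 h arrays then gave -0.84, -0.44 and 0.69, the 6 h arrays 1.00, 0.71 and 1.598, and the 9 h arrays 1.37, 1.47 and 1.77.

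Against 0 h, Ccr1 was 4.14-fold higher at 6 h (log2 change 2.05 ± 0.36, adjusted P = 0.00110) and 5.58-fold at 9 h (2.48 ± 0.36, adjusted P = 0.000202). From its lowest level, at 1 h, it rose by 1.603 ± 0.36 to 3 h (adjusted P = 0.0126), a call that was lost with normexp and in a fit of those 6 arrays alone.

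Ccr2, the receptor of Ccl2 and Ccl7, measured -3.94, -3.80 and -3.98 at 0 h. The 0.5 h arrays gave -4.45, -4.38 and -4.17, the 1 h arrays -5.24, -4.64 and -4.43, and the 3 h arrays -4.77, -4.35 and -3.46. All arrays of 0.5 h and 1 h lay below all those of 0 h. At 6 h it measured -2.35, -2.66 and -1.89, and at 9 h -2.01, -1.98 and -1.68. Both of these groups lay above every array of 0 h to 3 h and overlapped each other.

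Ccr2 was 3.05-fold higher than 0 h at 6 h (log2 change 1.61 ± 0.29, adjusted P = 0.00123) and 4.04-fold at 9 h (2.02 ± 0.29, adjusted P = 0.000178), and the step of 1.90 ± 0.29 from 3 h to 6 h passed the test (adjusted P = 0.00460). The value at 1 h, -0.86 ± 0.29, missed the adjusted threshold (adjusted P = 0.0966). It passed it after quantile normalization (adjusted P = 0.0327), a median shift (0.0347), in the deposited matrix (0.0329), with array weights (0.0238), and without 3 h replicate 3 (0.0384), and it turned to 0.37 with normexp (adjusted P = 0.650). With normexp the changes of Ccr2 at 6 h and 9 h, 1.08 and 1.39, were not called (adjusted P = 0.352 and 0.149), nor was the step from 3 h to 6 h, which was also lost in a fit of its 6 arrays alone.

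**Figure D3:**
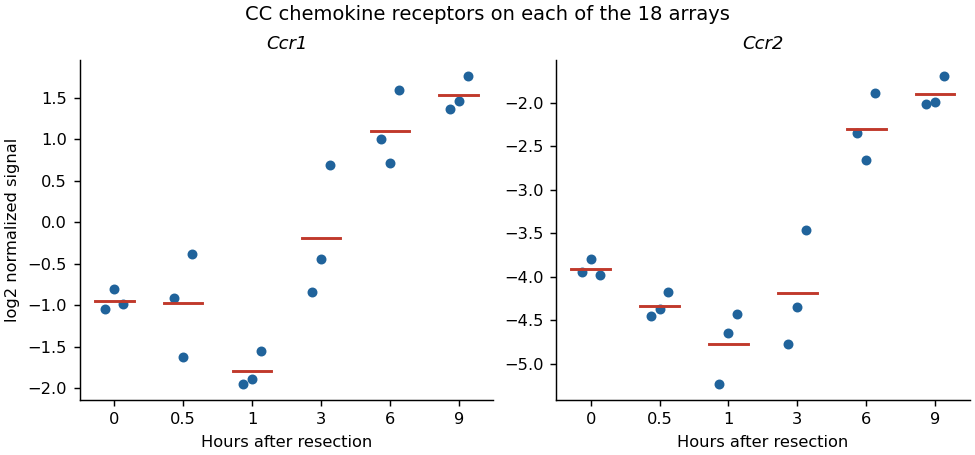
Level of Ccr1 and Ccr2 on each of the 18 arrays, as log2 signal relative to the 75th percentile of the array, by hours after resection; points are arrays and red bars are means of 3. Both receptors have their lowest mean at 1 h, -1.80 for Ccr1 and -4.77 for Ccr2, and their highest at 9 h.

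Within the arrays scanned on the second day, 1 h can be compared with later times without a change of day. At 3 h, 2 members were higher than at 1 h, Ccl2 by 2.48-fold and Ccr1 by 3.04-fold, where 4.44% of all tested genes were higher. At 6 h, 6 members were higher, where 11.3% of genes were. Their folds were 2.46 for Ccl2, 3.74 for Ccl3, 2.67 for Ccl7, 5.66 for Ccl20, 7.47 for Ccr1 and 5.55 for Ccr2.

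The same 6 members were higher than at 1 h on the 2 arrays of 9 h of that day, where 8.76% of genes were, with Ccr1 9.28-fold and Ccr2 6.84-fold higher. Ccl4 was 2.62-fold higher at 6 h and did not pass (adjusted P = 0.0624), and Ccl5 was 2.02-fold higher and did not pass (adjusted P = 0.112). Ccl4 was called there with slide as a random effect, with a robust trended prior, and without 3 h replicate 1 or 3 h replicate 3, and Ccl5 with array weights. The count at 3 h fell to 0 without 1 h replicate 1, 3 h replicate 2 or 3 h replicate 3 and to 1 without 1 h replicate 2, 1 h replicate 3, 9 h replicate 1 or 9 h replicate 2, and the count at 9 h fell to 2 without 9 h replicate 1, to 3 without 9 h replicate 2 and to 4 without 1 h replicate 1. Without 9 h replicate 1 or 2 that time has 1 array in this fit, which is then assumed to vary like the other groups. No change of scan day enters the 4 calls at 0.5 h, since the first day holds both groups, although their slides differed.

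Between neighbouring times over all 18 arrays, no member was called from 0.5 h to 1 h by limma, where 0% of genes were called higher. At an unadjusted P-value under 0.05 there were 4 members, beside 14.7% of all tested genes. Ccl2, Ccl7 and Ccl20 were higher at 1 h by this measure and Ccr1 was lower, and array weights called 1, Ccl2. From 1 h to 3 h Ccl2 and Ccr1 rose (6.07% of genes), and from 3 h to 6 h Ccl3, Ccl20 and Ccr2 (3.15% of genes). The step of Ccr1 from 3 h to 6 h, 1.30 ± 0.36, narrowly missed the test (adjusted P = 0.0535). It was called, among other settings, with slide as a random effect, with array weights and with a robust trended prior. From 6 h to 9 h no member was called by limma or at an unadjusted P-value under 0.05, beside 0.00735% of genes called higher and 12.9% under that unadjusted value. The step from 3 h to 6 h gave 6 members without 3 h replicate 3 and 1 without 3 h replicate 1 or 6 h replicate 3. Ccr2 was called whichever array was left out, while Ccl3 and Ccl20 each lost the call without some of these arrays.

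In the course over all arrays, each taken relative to its own 0 h mean, Ccr1 and Ccr2 were the closest pair of members, with a root mean square difference of 0.56 on the log2 scale over 18 arrays. Ccl4 and Ccr1 followed at 0.69 and Ccl3 and Ccl7 at 0.73. Among 13446 other genes with a listed symbol, the nearest to Ccl2 were S100a9 (0.56) and S100a8 (0.71), which encode the neutrophil protein calprotectin. The nearest to Ccr1 were Lst1 (0.33) and Msr1 (0.36), a scavenger receptor of macrophages, and the nearest to Ccr2 were Nfam1 (0.33) and Cst7 (0.37). Ccl3 was nearest to Ifit1bl (0.58) and Acod1 (0.66), Ccl4 to Ly6cl1 (0.39) and Nlrp3 (0.41), and Ccl7 to Nos2 (0.62) and Mt2A (0.68). For Ccl20, whose 0 h signal was not well above background, no such distance is given. Ccl5 was nearest to Dapp1 (0.35) and Nkg7 (0.36), whose small distances go with small changes.

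Markers of leukocytes are given beside the members. In whole nerve tissue, more cells of a type and more RNA per cell cannot be told apart. Of 12 macrophage and monocyte markers, 6 were called higher and 1 lower at 9 h, and the mean level of the list ranged from 0.25 to 0.49 across the 0 h arrays and from 1.04 to 1.72 across those of 9 h. Its lowest mean, 0.016, was at 1 h, the time of the lowest Ccr1 and Ccr2. No marker of this list was dim on all 0 h arrays. Msr1, Fcgr2a and Cd14 had the largest changes at 9 h, 2.75, 2.55 and 2.15. Adgre1 was the marker called lower, at -0.91. Not called at 9 h were Itgam (1.11), Cd68 (0.59), Cx3cr1 (0.39), Mrc1 (0.060) and Aif1 (0.022). Csf1r was called through another of its probes, while its reported probe changed by 0.23.

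Of 9 tested neutrophil markers, 3 were called higher at 0.5 h and 1 h and 8 from 3 h on, and their mean level went from a range of -5.13 to -4.72 at 0 h to -3.74 to -2.60 at 0.5 h and -2.25 to -0.80 at 3 h. Elane and Mmp8 were not well above background on any 0 h array. Markers of B cells and mast cells gave 1 call in all, Ms4a2 lower at 6 h. Of 14 Schwann cell markers, 2 were called higher and 6 lower at 9 h, when 17.0% of all tested genes were higher and 15.9% lower. Of 6 fibroblast markers 5 were called lower at that time, and of 7 endothelial markers 2. The mean level of 3 erythroid markers was 0.74 at 0 h and 2.34 at 0.5 h, and none of them was called. The part of any of these cell types in the change of a member was not tested.

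**Figure D4:**
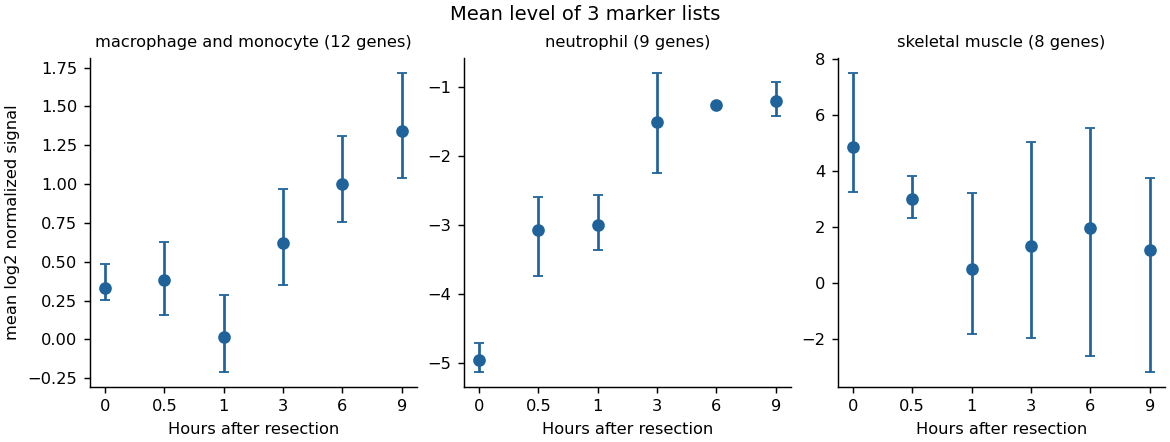
Mean log2 normalized signal of 12 macrophage and monocyte, 9 neutrophil and 8 skeletal muscle markers by hours after resection; points are means of 3 arrays and bars reach from the lowest to the highest array. The neutrophil list rises from a measured mean of -4.96 at 0 h, where 2 of its genes were dim on every array, to -1.51 at 3 h. The macrophage list is lowest at 1 h and highest at 9 h. The muscle list spreads least at 0.5 h, from 2.31 to 3.83, and more widely at the other times.

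Of the other CC ligands, 14 were listed, 13 were on the array and 12 could be tested. At 0.5 h and at 1 h 1 of them was called higher, Ccl17, a ligand of Ccr4, where 4.70% and 3.89% of all tested genes were. At 3 h 3 were called higher, and at 6 h and 9 h 5 were called higher and 1 lower, where 13.5% and 15.9% of all tested genes were lower. Ccl9, called at 6 h and 9 h, Ccl25, called at 9 h, and Ccl28, called at 3 h, were not well above background on any 0 h array. At 6 h Ccl9 exceeded background on 1 array only and has no lower bound. The median log2 change of the list at 9 h was 0.93 as measured and 0.59 with its 3 genes that were dim at 0 h set to their bounds, beside 0.0145 for all tested genes.

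Ccl12, another ligand of Ccr2 in rodents, was called with the late members, and changed by 3.47 ± 0.81 at 6 h (adjusted P = 0.00631) and 4.32 ± 0.81 at 9 h (adjusted P = 0.00123), after 0.046 at 3 h. Ccl17 changed by 2.87 ± 0.29 at 3 h and 3.03 ± 0.29 at 6 h. Ccl22, the second ligand of Ccr4, changed by 2.34 ± 0.35 at 6 h. Ccl27, the ligand that was lower, fell by 0.49 at 6 h and by 0.57 at 9 h.

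Of the other CC and atypical receptors, 14 were listed, 12 were on the array and 6 could be tested. Ccr3, Ccr4, Ccr6, Ccr8, Ccr9 and Ccr10 were too dim to be tested, among them the receptor of Ccl20 and that of Ccl17. Ccr7, a receptor of dendritic cells and T cells, changed by 1.73 ± 0.41 at 6 h (adjusted P = 0.00705) and 2.14 ± 0.41 at 9 h (adjusted P = 0.00145), from a 0 h signal that was well above background on 1 of 3 arrays. Ccrl2 and Ackr3, receptors that bind chemokines without the usual G protein signal, were called at 0.5 h and 1 h and at no later time, with 1.40 ± 0.17 for Ccrl2 at 1 h (adjusted P = 0.000401).

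**Figure D5:**
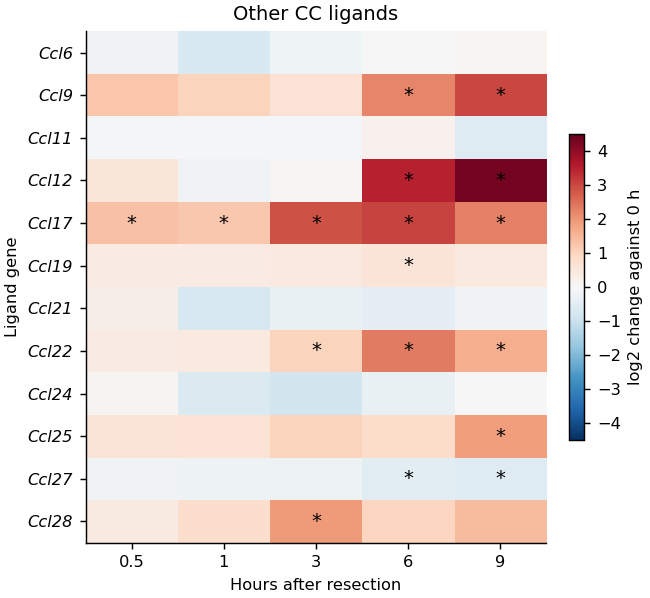
Log2 change against 0 h of the 12 other CC ligands that could be tested, by hours after resection; red is higher, blue is lower and a star marks a gene called by any of its probes. Ccl12 carries stars at 6 h and 9 h and Ccl17 at all 5 times, and Ccl9, Ccl25 and Ccl28 were not well above background at 0 h.

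In the list of genes that induce CC ligands or control their transcription or mRNA decay, 14 were tested. Of these, 5 were called higher at 0.5 h and 6 at 1 h, where 4.70% and 3.89% of all tested genes were. The count was 10 for 3 h, 10 for 6 h and 11 for 9 h, beside 7.70%, 13.1% and 17.0% of all tested genes. None was called lower at these times. With normexp the counts were 4, 6 and 6. The cytokine Il1b rose by 2.68 ± 0.33 at 0.5 h (adjusted P = 0.000518) and 4.43 ± 0.33 at 6 h. Fos and Jun, subunits of the transcription factor AP-1, rose by 5.69 ± 0.33 and 1.93 ± 0.16 at 0.5 h. Zfp36, whose protein brings about the decay of cytokine mRNAs, rose by 4.63 ± 0.26 at 0.5 h, and Nfkbia, the inhibitor of NF-κB, by 1.15 ± 0.22. Il1a was not well above background at 0 h and was at least 7.87-fold higher at 6 h, and Tnf was at least 1.83-fold higher at 9 h.

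Of 19 tested genes of receptor signalling, 4 were called higher at 0.5 h and 11 at 9 h, where 4.70% and 17.0% of all tested genes were. None was called lower. Rac1 was called at 9 h through its other probe, while its reported probe changed by 0.055. Rgs16, also called at 9 h, was dim on all 0 h arrays. It was above background on 2 of the 9 h arrays and 1.11-fold above its 0 h bound. Rgs1, which shortens G protein signals, rose by 3.59 ± 0.37 at 0.5 h (adjusted P = 0.0001205). Jak2 and Stat3 rose by 1.27 ± 0.11 and 1.49 ± 0.12 at 6 h, and Vav1, an exchange factor of leukocytes, by 1.17 ± 0.20 at 9 h. Of the 4 G protein subunits tested, Gnai3 rose by 0.50 ± 0.14 at 6 h (adjusted P = 0.0160), and Gnai2, Gnb1 and Gnb2 were called at no time.

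For 4 of the 8 members, Ccl7, Ccl20, Ccr1 and Ccr2, the RefSeq table of rat promoters (GRCr8) held a sequence. The 250 bases before the start were searched on both strands for the NF-κB consensus, for AP-1 (TGANTCA) and for a TATA box (TATAAA), motifs that do not overlap in these sequences. Those of the early ligands Ccl7 and Ccl20 are shown because they hold matches, in capitals, and those of the late receptors Ccr1 and Ccr2 held none.

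Ccl7, chr10:67513845-67514094, plus strand: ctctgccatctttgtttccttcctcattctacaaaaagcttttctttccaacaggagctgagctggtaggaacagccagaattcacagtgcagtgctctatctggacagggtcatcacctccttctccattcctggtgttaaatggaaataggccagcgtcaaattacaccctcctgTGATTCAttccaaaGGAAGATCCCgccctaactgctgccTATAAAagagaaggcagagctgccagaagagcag
Ccl20, chr9:91836909-91837158, plus strand: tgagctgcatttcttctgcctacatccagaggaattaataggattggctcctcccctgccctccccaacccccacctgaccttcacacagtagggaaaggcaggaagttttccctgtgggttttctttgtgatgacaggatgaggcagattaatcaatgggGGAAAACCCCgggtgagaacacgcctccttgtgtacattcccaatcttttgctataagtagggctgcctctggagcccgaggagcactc

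In Ccl7 the AP-1 match lay 73 to 67 bases before the start, the NF-κB match 59 to 50 bases before it on the minus strand, and the TATA match 34 to 29 bases before it. In Ccl20 the only match was that to NF-κB, on the minus strand 89 to 80 bases before the start. Of 33469 rat promoters, 6.33% held the NF-κB consensus in these 250 bases, 6.34% the AP-1 motif and 12.9% the TATA motif. A match describes letters in this window and does not show that a factor was bound.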

How the data were processed

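RNA of proximal sciatic nerve was measured on 18 one-colour Agilent rat arrays, 3 for each of 6 time-points given by the sample titles. The authors deposited each array's scanner output, whose processed signal is a linear intensity that the Feature Extraction software had background-subtracted and detrended, with mean and local background signals and flags. A second deposited table, of quantile normalized log2 values that were not centred, served as an alternative. The rows of both carry rn4 positions or probe names. The processed signal was used on a log2 scale relative to the 75th percentile of each array's spots, without control spots and outlier flags. Spots of the same probe were averaged. Testing was limited to probes for which some time-point had the signal well above background on each of its 3 arrays (32111 of 41012). The test was made with limma (version 3.58.1, R 4.3.3) in 1 model of all 18 arrays, and P-values were adjusted over all of them. Tests within the second scan day used its 11 arrays. A call of 1 probe calls its gene, and the gene's tested probe with the highest mean is reported. A list is described by its counts and median, with no set test.

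Names came from the accession of the files through a RefSeq table for 16336 probes, from a listed symbol for 3732 and from a synonym for 1098, while the rest keep the files' own name. The text names the members, genes of the lists, and for each member but Ccl20 the 2 genes nearest to it by root mean square difference. The members and lists were chosen with earlier results of these data known. On simulated arrays of 31912 probes, 6 h against 0 h recovered 92% of 50 probes given a log2 change of 2 and 58% of 50 given 1. Precision is limited by how many arrays there are. Alternatives were normexp (offset 50), quantile normalization, a median shift, the deposited matrix, other filters, thresholds and priors, blocks for replicate, slide or scan day, array weights, the 6 arrays of a contrast alone, 1 probe per gene, and each array left out. No column of these tables was left without a sample. Some genes are not reported here.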

Additional observations from a re-analysis of the deposited data

How the results depend on the processing

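Of 395 recomputed counts of members, 317 named the same members. Counts that moved over 1.5 times did so as follows. With normexp, 2 members were called at 0.5 h and 2 at 1 h in place of 4, 1 from 1 h to 3 h in place of 2, and 0 from 3 h to 6 h in place of 3. Within the second day normexp gave 0, 3 and 2 at 3 h, 6 h and 9 h in place of 2, 6 and 6. Without a filter 1 was called at 3 h against 1 h within that day. From 3 h to 6 h 6 members were called with the replicate block, 5 with array weights, 5 with the slide taken as random, 5 with a robust trended prior, and the 6 arrays of the contrast alone 0. The 6 arrays alone also gave 0 from 1 h to 3 h, and array weights gave 1 from 0.5 h to 1 h. Leaving out 1 array gave 1 to 6 members from 3 h to 6 h, 0 to 2 at 3 h against 1 h within the second day, and 2 to 7 at 9 h. A filter that asked for signal above background on each of the 18 arrays left Ccl20 untested. The cause of the other changes was not tested.

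The replicate numbers did not pair the arrays: same-numbered arrays deviated together by a median correlation of 0.071 (-0.26 to 0.56, over 0.1 in 22 of 45 pairs). The replicate block added Ccl5 to the members called over all times (8) and at 6 h (adjusted P = 0.0363), and Ccr2 at 1 h. Within the second day it called 8 members at 6 h, Ccl4 and Ccl5 included, and 7 at 9 h. It also called Ccl4, Ccl7 and Ccr1 from 3 h to 6 h.

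Of 1283 recomputed changes of single members, 1249 kept direction and side of the threshold, 16 lost a call, 8 gained one and 10 changed sign, none of them called in the main fit. With normexp Ccl5 at 1 h became 0.21, Ccr2 at 1 h 0.37 and Ccr2 at 3 h 0.82, and with array weights Ccl5 at 9 h became -0.035. Leaving out 1 array, the ranges over all arrays were -0.39 to 0.21 for Ccl5 at 0.5 h, -0.32 to 0.30 for Ccr1 at 0.5 h, -0.65 to 0.0040 for Ccr2 at 3 h and -0.095 to 0.80 for Ccl4 at 3 h. A median shift lowers all changes against 0 h by 0.098 to 0.17, and no call of a member was lost by it. With normexp the lists lost calls too, for example 3 in place of 11 higher at 9 h for receptor signalling.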
